A study of Mus musculus with 2 samples.

Results

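Glutamate receptors and the scaffolds that hold them at the synapse were followed in RNA from mouse hippocampus. Members were all probes whose gene symbol in the platform annotation starts with Gria, Grik, Dlgap or Shank, or with Grin, Grid, Grm or Dlg and a number, without Grina, Grinl and Grip symbols. The rule used names and no measured value. It found 28 genes on 29 probes, of 16446 distinct gene symbols on the array, and 25 of the 28 were measured in every channel. Both comparisons over wild type came from 2 two-colour arrays. One carried AtrxdE2+TMPyP4, a pool of 5 mice with the AtrxΔE2 allele that received TMPyP4 (30 mg/kg into the peritoneum, 2 doses per week) between postnatal days 30 and 90, against wild type. The other carried AtrxdE2, a pool of 5 mice with the same allele and no TMPyP4 in its label, against wild type. Both mutant pools therefore carry the allele, the age at tissue collection and any vehicle given to the other mice are not stated, and it is not stated whether wild type was the same pool of 5 mice on both arrays. Mutant RNA was always labelled with Cy3 and wild type with Cy5, so dye and genotype cannot be told apart. Each group is 1 pool on 1 array, so the values that follow lack replicates and no test was run.

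Atrx lies on the X chromosome and encodes a chromatin remodeller that binds G-rich repeats, and TMPyP4 is a cationic porphyrin that binds G-quadruplexes, folds that single strands with several runs of guanines can form. Glutamate is the main excitatory transmitter of the hippocampus. AMPA receptors carry most of the fast current, NMDA receptors admit calcium when glutamate and depolarisation coincide and so trigger synaptic plasticity, kainate receptors modulate release and excitability and are prominent at mossy fibre synapses, and metabotropic receptors act through G proteins. Scaffolds of the Dlg, Dlgap and Shank families form layers beneath the membrane, with Dlg proteins at the receptors, Dlgap proteins in between and Shank proteins toward Homer and actin.

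Atrx itself had a log2 level of 6.70 in AtrxdE2+TMPyP4, against 7.06 in wild type on that array, and of 6.15 in AtrxdE2, against 6.83 in wild type on the other. It was thus lower than wild type in both mutant pools, by a log2 ratio of -0.36 in AtrxdE2+TMPyP4 and -0.68 in AtrxdE2, and the place of its probe relative to the deleted part was not analysed here. Xlr3b, an X-linked gene whose RNA was the highest above wild type of all measured genes in AtrxdE2, had 0.30 in AtrxdE2+TMPyP4 and 1.75 in AtrxdE2. An offset added before taking logs draws such ratios of dim probes toward 0. In the authors' value table, which has no offset, Atrx was at -0.78 in AtrxdE2+TMPyP4 and -1.96 in AtrxdE2. Xlr3b was at 0.46 and 2.47 there. A log2 level here is the normalized brightness of a gene in 1 channel, and a log2 ratio is the difference between the channels of 1 array. Levels are compared within a gene only, since brightness differs between probes. Both channels were above background for 81.1% of probes on the AtrxdE2+TMPyP4 array and 84.5% on the AtrxdE2 array, and the median probe was brighter than the blank spots by 79.0 intensity units in AtrxdE2+TMPyP4 against 36.02 in wild type, and 64.6 in AtrxdE2 against 42.2 in wild type.

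Of the 28 members, Grik1, Grm6 and Grid2ip were not measured and have no fold. Grik1, a low-affinity kainate receptor subunit, and Grid2ip, which encodes the scaffold delphilin of Purkinje cells, were above background in both channels of the AtrxdE2 array and in neither channel of the AtrxdE2+TMPyP4 array. Grm6, the receptor of retinal ON bipolar cells, was above background in no channel. Dlgap1 was the 1 member with 2 probes, and both were measured. Of the members' probes, 8 were brighter than the median measured probe in every channel. The annotation lists Dlgh1 to Dlgh4 under older symbols that the rule does not match. Dlgh1 is now Dlg1 and Dlgh4 is now Dlg4, whereas Dlgh2 and Dlgh3 are each a synonym of 2 current genes, a Dlg and an Mpp gene, and are left under their old symbols. They are described separately at the end of the scaffolds.

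Because TMPyP4 binds folds of G-rich DNA, the 250 bases before the annotated start of each member were searched, in RefSeq sequence of build GRCm38.p6, for 4 runs of GGG separated by 1 to 7 bases of any kind, on either strand (as runs of CCC on the strand shown). RefSeq windows were given for 17 of the 28 genes. The pattern was found in 4 of these 17 (23.5%), Grik5, Grin2c, Grm7 and Shank3, against 18.4% of the 27025 genes with a window. Below are the windows of Gria2, the member with the highest ratio in AtrxdE2 (chr3:80802836-80803085, minus strand), of Grik5, among the lowest in AtrxdE2+TMPyP4 (chr7:25072370-25072619, minus strand), and of Shank3, the scaffold with the lowest difference between the mutant pools (chr15:89499358-89499607, plus strand), each 5′ to 3′ and with bases inside a pattern in capitals, overlapping patterns joined.
Gria2: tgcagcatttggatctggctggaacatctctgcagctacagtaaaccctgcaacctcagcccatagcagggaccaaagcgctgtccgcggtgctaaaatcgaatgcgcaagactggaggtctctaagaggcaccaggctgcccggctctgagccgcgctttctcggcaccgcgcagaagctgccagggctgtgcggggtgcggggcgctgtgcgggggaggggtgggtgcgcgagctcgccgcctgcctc
Grik5: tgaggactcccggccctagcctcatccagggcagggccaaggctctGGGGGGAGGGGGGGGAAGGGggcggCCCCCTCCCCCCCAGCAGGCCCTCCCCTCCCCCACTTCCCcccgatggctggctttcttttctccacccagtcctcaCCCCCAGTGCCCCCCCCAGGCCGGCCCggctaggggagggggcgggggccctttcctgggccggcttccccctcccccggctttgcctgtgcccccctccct
Shank3: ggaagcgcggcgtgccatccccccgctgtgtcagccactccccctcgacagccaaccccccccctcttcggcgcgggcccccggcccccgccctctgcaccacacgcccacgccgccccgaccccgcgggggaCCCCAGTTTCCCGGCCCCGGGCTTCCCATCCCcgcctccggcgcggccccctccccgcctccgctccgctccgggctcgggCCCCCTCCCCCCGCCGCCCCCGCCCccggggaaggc
The Gria2 window holds no such pattern, while 87 bases of the Grik5 window and 57 bases of the Shank3 window lie in these shortest patterns. The log2 ratios of the 4 genes with a pattern lay on both sides of wild type in AtrxdE2+TMPyP4, at -0.45 for Grik5, -0.16 for Shank3, 0.01 for Grin2c and 0.16 for Grm7. A match describes letters and does not show that the DNA folds there.

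The first comparison asks how the receptor genes of AtrxdE2 hippocampus differed from wild type. The AMPA receptor genes stood above wild type, led by Gria2 and Gria3 (with the local background Gria3 was at -0.06 and Gria4 at -0.02). The medians of the NMDA, kainate and metabotropic classes lay below wild type, at -0.09, -0.08 and -0.10, with members on both sides. With median centring the kainate median lay above it. Grin2d at 0.13 and Grin2a at 0.12 were about as far above it as Gria4 at 0.13, and Grm5 was lowest at -0.27. A smaller limit of 0.32 log2 units and a larger one of 2-fold were used for counts. Higher by at least 0.32 were 2 members, Gria2 and Gria3, where 4.5% of all 13630 measured genes were, and 0 were lower by as much, where 5.04% were. With the local background the split was 2 higher, where 5.51% of all genes were, and 2 lower, where 7.98% were. With median centring in place of loess it was 5 higher (17.2% of all genes) and 0 lower (1.59%). By the 2-fold rule 0 members were higher (0.022% of all genes) and 0 lower (0.00734%). Of the 25 members 13 were above 0, against 49.3% of all genes. The median over the 25 was 0.05, against -0.00 for all genes.

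**Figure D1:**
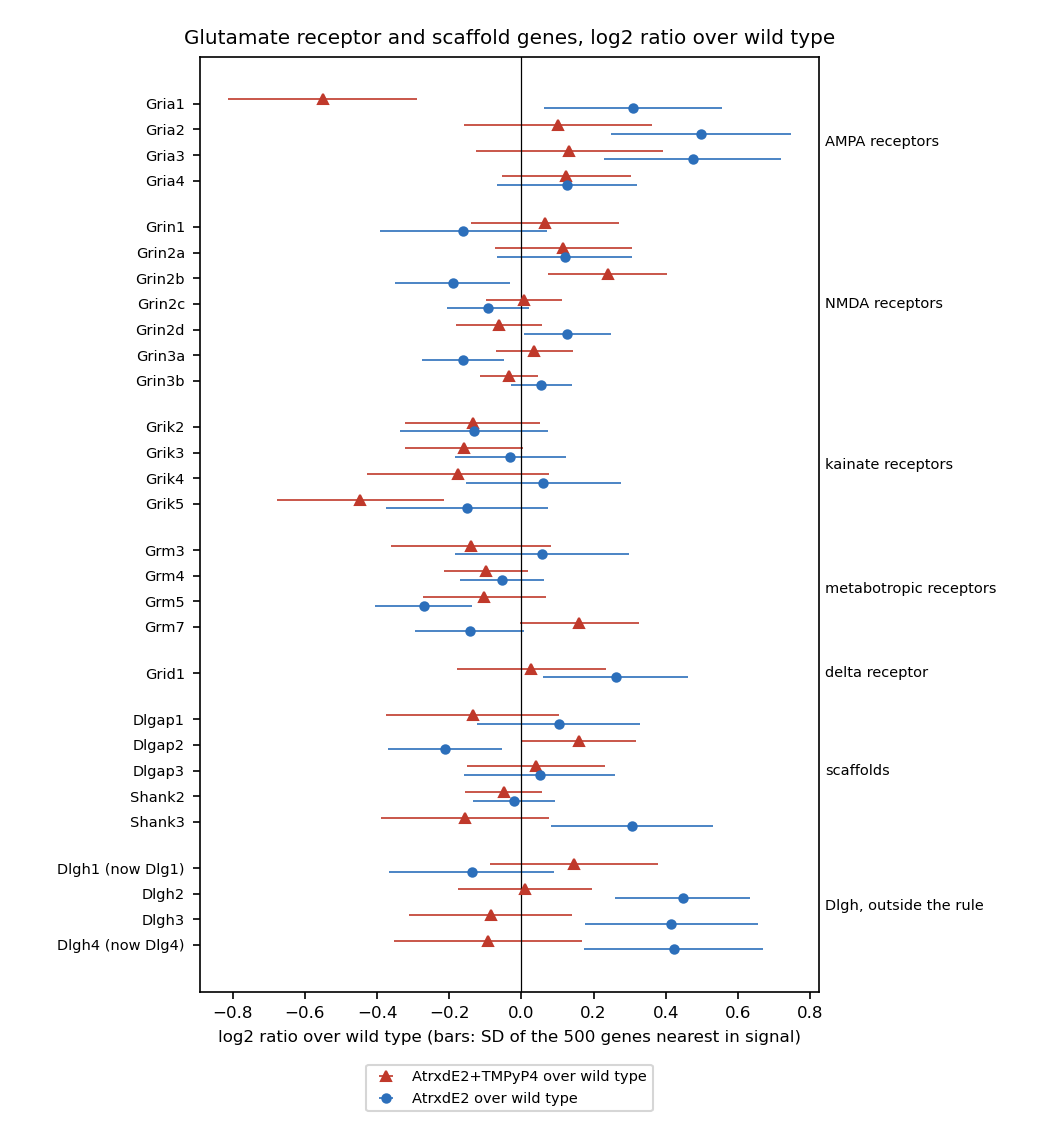
Log2 ratio over wild type (horizontal axis) of the 25 measured members and the 4 Dlgh genes, by class, in AtrxdE2+TMPyP4 (red triangles) and AtrxdE2 (blue circles), 1 array each. Bars give the SD among the 500 genes of closest signal and are no replicate error. In AtrxdE2 Gria2 (0.50) and Gria3 (0.47) lie farthest right of the members, and in AtrxdE2+TMPyP4 Gria1 (-0.55, but 0.06 with median centring) and Grik5 (-0.45) lie farthest left.

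The plot of ratios over wild type shows each member beside the spread of genes of like brightness. Its bars are widest for bright genes such as Gria1 and narrowest for dim ones such as Grin3b, because the offset added before taking logs draws the ratios of dim probes toward 0.

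Among AMPA receptors, Gria2 encodes GluA2, the subunit that keeps edited receptors impermeable to calcium. Its log2 level was 12.04 in AtrxdE2, against 11.54 in wild type, a log2 ratio of 0.50, or 1.41-fold (signals above blank 5013 in AtrxdE2 and 2322 in wild type). Among the 500 genes of closest signal the SD was 0.25, and Gria2 lay at their percentile 97.8. Gria3 encodes GluA3, which pairs with GluA2. It had a level of 12.03 in AtrxdE2, against 11.55 in wild type, a log2 ratio of 0.47 (signals 4958 and 2334, percentile 97.6). Gria1 encodes GluA1, the subunit inserted into hippocampal synapses during potentiation, and stayed just short of the limit with 12.24 in AtrxdE2, against 11.93 in wild type, a log2 ratio of 0.31 (signals 5716 and 3047, percentile 91.0). Gria4, the subunit of interneurons and early development, had 0.13. All 4 AMPA genes were above wild type on this array by this processing, with a class median of 0.39. The same 4 genes had a median of 0.35 in the authors' value table. With the local background in place of the blank spots the class median was 0.16, and Gria3 at -0.06 and Gria4 at -0.02 were below wild type.

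The 7 NMDA receptor genes had a median of -0.09, from Grin2b at -0.19 to Grin2d at 0.13. Grin1, the obligatory subunit, had a level of 9.26 in AtrxdE2, against 9.42 in wild type, a log2 ratio of -0.16 (signals 679.5 and 488.9), inside the SD of 0.23 of genes nearest in signal. Grin2b, the glutamate-binding subunit that prevails early in development, had 6.59 in AtrxdE2, against 6.78 in wild type (signals 47.99 and 42.7), and lay at percentile 11.6 of genes nearest in signal. Grin2a, the glutamate-binding subunit of the mature forebrain, had a log2 ratio of 0.12. Grin2d, best known from the brainstem and interneurons, was at 0.13 and Grin2c, best known from the cerebellum, at -0.09. The glycine-binding modulatory subunits Grin3a and Grin3b were at -0.16 and 0.06. No NMDA gene reached 0.32 log2 units on this array. In the authors' value table, which has no offset, 2 of the 7 were higher by that limit (12.9% of all genes there) and 2 lower (16.5%), the lower ones being Grin3a at -0.65 and Grin2b at -0.48. Over all 25 members that table had 5 higher and 5 lower, and 0 past 2-fold in either direction (0.77% of all genes higher and 0.792% lower).

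The 4 measured kainate receptor genes had a median of -0.08. With median centring their median lay above wild type, with Grik4 at 0.18, Grik5 at 0.11, Grik3 at -0.04 and Grik2 at -0.07. With loess the values were as follows. The low-affinity subunit genes Grik2, of mossy fibre synapses, and Grik3 had -0.13 and -0.03, and the high-affinity subunit genes Grik4, of CA3 neurons, and Grik5, which needs a low-affinity partner, had 0.06 and -0.15. These values all lay within 1 SD of genes nearest in signal. The 4 measured metabotropic receptor genes had a median of -0.10. Grm5, a group I receptor coupled to phospholipase C, was the lowest member of all in AtrxdE2 by this processing, with a level of 6.30 in AtrxdE2, against 6.57 in wild type, a log2 ratio of -0.27 (signals 28.02 and 31.52). It lay at percentile 3.6 of genes nearest in signal and was at -0.82 in the authors' value table. Dlgap3 and Grm3 were lower with the local background, at -0.53 each, where Grm5 was at -0.21. Grm7, a group III receptor of the presynaptic active zone, had -0.14, Grm4, also of group III, -0.05, and Grm3, of group II and coupled to inhibition of adenylyl cyclase, 0.06. Grid1, the delta receptor gene whose product binds cerebellins, was at 0.26.

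The 5 measured scaffold genes had a median of 0.05 in AtrxdE2. Shank3, a scaffold that joins Dlgap proteins to Homer and actin, had a level of 9.78 in AtrxdE2, against 9.47 in wild type, a log2 ratio of 0.31 (signals 1005 and 508.6, percentile 93.2), just short of the limit. Its relative Shank2 had -0.02. Dlgap2, whose product links Dlg to Shank proteins, had 6.56 in AtrxdE2, against 6.77 in wild type, a log2 ratio of -0.21 (signals 45.88 and 42.35). Dlgap1 had 0.10, with 0.12 and 0.09 for its probes, and Dlgap3 0.05.

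Outside the rule, 3 of the 4 Dlgh genes were higher by at least 0.32 log2 units in AtrxdE2, where 4.5% of all genes were. Dlgh4, now Dlg4, the main Dlg scaffold of excitatory synapses, had 11.98 in AtrxdE2, against 11.56 in wild type, a log2 ratio of 0.42 (signals 4784 and 2337, percentile 95.6). Dlgh2 had 0.45 and Dlgh3 0.42, and Dlgh1, now Dlg1, had -0.14. The values of Dlgh2, Dlgh3 and Dlgh4 stood beside those of Gria2 and Gria3 in AtrxdE2. Counted with the members, they would make 5 genes higher by that limit.

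**Figure D2:**
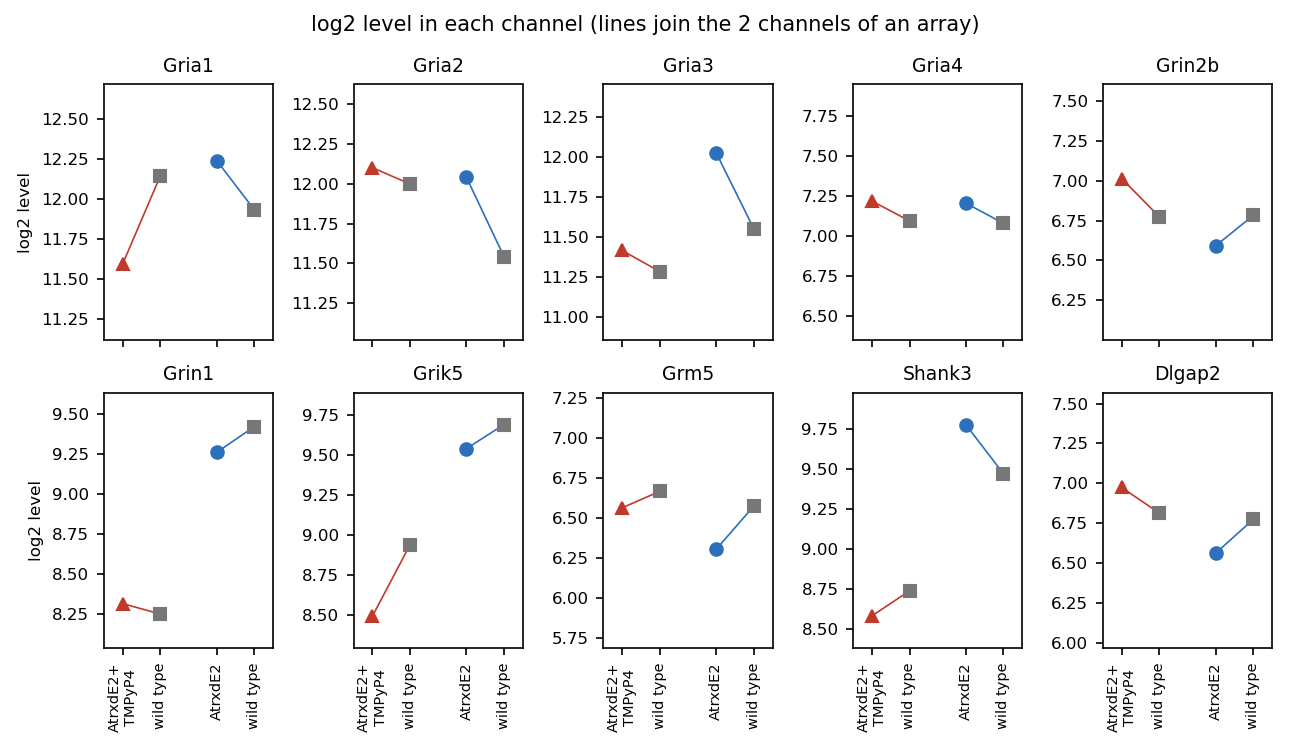
Log2 level (vertical axis, every panel spanning the same number of log2 units) of 10 members in the channels of both arrays, AtrxdE2+TMPyP4 (red triangles) and its wild type on the left and AtrxdE2 (blue circles) and its wild type on the right, 1 value each. Wild type (grey squares) is itself at unlike levels on the arrays for Grin1 (8.25 on the AtrxdE2+TMPyP4 array and 9.42 on the AtrxdE2 array), Grik5 (8.94 and 9.69) and Shank3 (8.74 and 9.47).

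The second comparison sets AtrxdE2+TMPyP4 against wild type. Gria1 and Grik5 were the members farthest below wild type by this processing. With median centring in place of loess Gria1 and Grik5 were at 0.06 and -0.02. There Grin3b was lowest at -0.28, where its genes nearest in signal had a median of -0.25. With the local background Gria1 and Grik5 were at -0.30 and -0.28, with Shank3 between them at -0.29. Gria2, Gria3 and Gria4 lay slightly above wild type, so the AMPA class was split. Lower by at least 0.32 log2 units were 2 members, Gria1 and Grik5, where 3.14% of all genes were, and 0 were higher, where 5.83% were. With median centring the split was 4 higher, where 37.5% of all genes were, and 0 lower, where 4.17% were. With the local background it was 1 higher (13.4% of all genes) and 0 lower (4.46%). By the 2-fold rule 0 were higher (0.161% of all genes) and 0 lower (0.0293%). Of the 25 members 12 were above 0, against 52.8% of all genes, and the median was -0.04, against 0.01 for all genes.

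Gria1 had a log2 level of 11.59 in AtrxdE2+TMPyP4, against 12.14 in wild type, a log2 ratio of -0.55, or 0.68-fold. It lay at percentile 2.4 of the 500 genes nearest in signal, whose SD was 0.26. Its signals before dye normalization were 4763 in AtrxdE2+TMPyP4 and 2993 in wild type. That the brighter channel has the lower level follows from the dye correction, and the ratio depends on its kind. With the same offset and the arrays centred on the median in place of loess, the genes nearest in signal to Gria1 had a median of 0.60. Gria1 was then at 0.06, which is -0.54 relative to them. Its percentile among them was 2.4 with loess or median centring and 15.4 with the local background. The authors' value table, which was shifted by a constant and has neither offset nor loess, had Gria1 at -0.50. Gria2 had 12.10 in AtrxdE2+TMPyP4, against 11.998 in wild type, a log2 ratio of 0.10 (signals 6808 and 2698). Gria3 had 11.41 in AtrxdE2+TMPyP4, against 11.28 in wild type, a log2 ratio of 0.13 (signals 4198 and 1636). Gria4 had 0.12. Within the array, Gria1 thus stood 0.65 log2 units below Gria2 relative to wild type, a pair chosen after its values were seen. The gap ran from -0.49 to -0.67 over 6 ways of processing, against -0.12 to -0.20 in AtrxdE2, and the wild-type channels of the arrays differed by -0.24 in the same gap.

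The 4 measured kainate receptor genes were all below wild type in AtrxdE2+TMPyP4, with a median of -0.17, although Grik2 was at 0.03 with median centring, and at 0.14, with Grik4 at 0.04, with the local background. The class median was -0.02 with either. Grik5 had a log2 level of 8.49 in AtrxdE2+TMPyP4, against 8.94 in wild type, a log2 ratio of -0.45, or 0.73-fold (signals 468.1 and 299.8). It lay at percentile 2.4 of genes nearest in signal, whose SD was 0.23, and was at -0.53 in the authors' value table. With median centring in place of loess it was at -0.02, where the genes nearest in signal had a median of 0.48. Relative to them Grik5 was at -0.50 (percentile 1.8), and with the local background at -0.39 (percentile 10.6). Grik4 had 7.20 in AtrxdE2+TMPyP4, against 7.38 in wild type, a log2 ratio of -0.18 (signals 134.1 and 76.67), Grik3 -0.16 and Grik2 -0.14. The 3 genes besides Grik5 lay within 1 SD of genes nearest in signal.

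NMDA receptor genes had a median of 0.04, but of -0.10, the value of Grin3a, with median centring. Grin2b was the highest member of all in AtrxdE2+TMPyP4 by this processing (Gria3 was highest with the local background, at 0.66, and with median centring, at 0.73), with a level of 7.01, against 6.77 in wild type, a log2 ratio of 0.24 (signals 103.6 and 35.11). It lay at percentile 93.6 of genes nearest in signal and was at 0.39 in the authors' value table, the 1 member past the limit on the higher side there (15.1% of all genes). On the lower side of that table were 6 members (12.1%), and 0 reached 2-fold (1.53% of all genes higher and 0.499% lower). Grin2a had 0.12, Grin1 0.07, with levels of 8.31 in AtrxdE2+TMPyP4 and 8.25 in wild type (signals 394.4 and 169.6), Grin3a 0.04, Grin2c 0.01, Grin3b -0.04 and Grin2d -0.06. Metabotropic receptor genes had a median of -0.10. Grm7 had 6.90 in AtrxdE2+TMPyP4, against 6.74 in wild type, a log2 ratio of 0.16 (signals 90.32 and 33.74), while Grm3 had -0.14, Grm5 -0.10, with 6.56 in AtrxdE2+TMPyP4 and 6.67 in wild type (signals 55.08 and 30.65), and Grm4 -0.10. Grid1 had 0.03. Apart from Grin2b these values lay within 1 SD of genes nearest in signal.

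Scaffold genes had a median of -0.05 in AtrxdE2+TMPyP4. Shank3 had 8.58 in AtrxdE2+TMPyP4, against 8.74 in wild type, a log2 ratio of -0.16 that was 0.26 with median centring (signals 499.4 and 254.2), and Shank2 had -0.05. Dlgap2 had 6.97 in AtrxdE2+TMPyP4, against 6.81 in wild type, a log2 ratio of 0.16 (signals 99.25 and 37.61). Dlgap1 had -0.13, with -0.07 at its bright probe and -0.20 at its dim one, and Dlgap3 had 0.04. Of the Dlgh genes, Dlgh4 had 11.28 in AtrxdE2+TMPyP4, against 11.37 in wild type, a log2 ratio of -0.09 (signals 3819 and 1745). Dlgh4 was at 1.10 with the local background and 0.51 with median centring. Dlgh3 had -0.09, Dlgh2 0.01 and Dlgh1 0.15, and none of the 4 reached 0.32 with loess and the blank spots.

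The third comparison asks how AtrxdE2+TMPyP4 differed from AtrxdE2 and subtracts the log2 ratio of AtrxdE2 over wild type from that of AtrxdE2+TMPyP4. It shares each ratio with the comparisons above and adds no independent measurement. Among members, 4 were lower in AtrxdE2+TMPyP4 by at least 0.32 log2 units, Gria1, Shank3, Gria2 and Gria3, where 6.54% of all genes were, and 2 were higher, Grin2b and Dlgap2, where 10.3% were. With median centring the split was 4 higher (23.5% of all genes) and 2 lower (5.7%), the lower ones being Gria1 and Grid1. With the local background it was 3 higher (19.0%), Dlgap3, Gria3 and Grm3, and 2 lower (9.31%), Gria1 and Shank3, while Grin2b was at 0.24 and Dlgap2 at 0.17. With the Cy3 channels compared directly it was 3 higher (17.3%) and 9 lower (16.0%). By the 2-fold rule 0 were higher (0.213% of all genes) and 0 lower (0.103%). The authors' value table had 6 higher (23.2%) and 8 lower (17.7%) by the smaller limit, and 0 by the larger (3.02% higher and 1.58% lower). Of the 25 members 7 were above 0, against 52.7% of all genes. The median was -0.05, against 0.02 for all genes.

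Gria1 differed by -0.86, or 0.55-fold, and lay at percentile 1.0 of genes nearest in signal, whose SD was 0.30. Shank3 differed by -0.46 (percentile 3.0), Gria2 by -0.40 (7.8) and Gria3 by -0.34 (10), while Gria4 differed by -0.00. Gria3 was instead at 0.72 with the local background and 0.02 with median centring, and Gria2 at -0.28 and -0.02. The AMPA class median was -0.37, against 0.10 for NMDA, -0.18 for kainate and 0.06 for metabotropic receptors and -0.03 for scaffolds. The AMPA median was -0.07 with the local background and -0.00 with median centring, and the kainate median 0.06 and -0.13. With median centring the NMDA median was -0.03, the value of Grin2a. This contrast between classes thus depends on the processing. In the authors' value table the AMPA median was -0.275 and the NMDA median 0.23. With median centring the genes nearest in signal to Gria1, Gria2 and Gria3 had medians of 0.41, 0.41 and 0.39. Relative to these medians the genes were at -0.89, -0.43 and -0.37. With the local background they were at -0.84, -0.46 and 0.56 relative to the genes nearest in signal. Grin2b differed by 0.43 (percentile 95.8), Dlgap2 by 0.37 (94.0) and Grm7 by 0.30 (92.0). For Gria1 and Shank3, AtrxdE2+TMPyP4 lay below wild type and AtrxdE2 above it, except that with median centring both pools lay above it, with 0.06 in AtrxdE2+TMPyP4 and 0.54 in AtrxdE2 for Gria1 and 0.26 and 0.57 for Shank3. For Grin2b, Dlgap2 and Grm7, AtrxdE2+TMPyP4 lay above wild type and AtrxdE2 below it. Kainate genes lay between -0.30 for Grik5 and -0.00 for Grik2, which was at 0.31 with the local background. Of the genes outside the rule, Dlgh4 differed by -0.51 (but 0.79 with the local background), Dlgh3 by -0.50, Dlgh2 by -0.44 and Dlgh1 by 0.28.

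**Figure D3:**
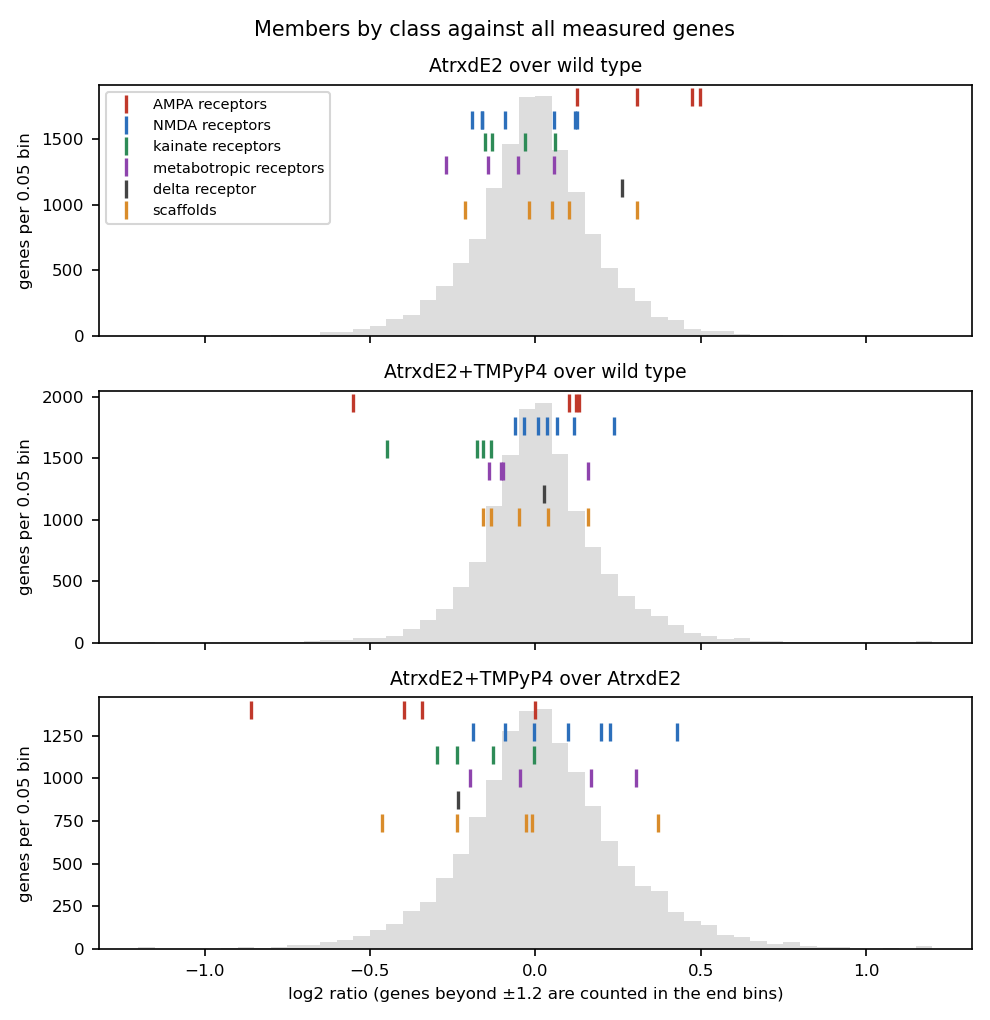
Number of measured genes per bin of 0.05 log2 units (grey, vertical axis) by log2 ratio (horizontal axis) in the 3 comparisons, with 1 coloured tick per member, by class. In AtrxdE2 over wild type the 4 AMPA ticks lie between 0.13 and 0.50, in AtrxdE2+TMPyP4 over wild type between -0.55 and 0.13, and the ticks of other classes lie mostly in the bulk of all genes.

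The plot of members against all genes places each class in the distribution it was drawn from. In the plotted values the member farthest from 0 is Gria2 in AtrxdE2 over wild type and Gria1 in the other panels, an order that rests partly on the offset. In the authors' value table, without an offset, Grm5 (-0.82) and Grin3a (-0.65) lay farther out than Gria2 (0.46) in AtrxdE2. There Grik5 (-0.53) lay farther out than Gria1 (-0.50) in AtrxdE2+TMPyP4, and Grin2b (0.87) farther than Gria1 (-0.76) between the mutant pools. In the plot Grik5 follows Gria1 in AtrxdE2+TMPyP4 over wild type, and Shank3 and Grin2b follow it in AtrxdE2+TMPyP4 over AtrxdE2.

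The wild-type channels give the 1 measure of a kind of RNA that was hybridised to both arrays. Between them, with the AtrxdE2+TMPyP4 array minus the AtrxdE2 array, levels of 6 members were lower by at least 0.32 log2 units, where 11.0% of all genes were, and that of 1 member, Gria2, was higher, where 9.72% were. By 2-fold 2 were lower (0.624% of all genes) and 0 higher (0.11%). Grin1 differed by -1.17, Grid1 by -1.01, Grik5 by -0.75, Shank3 by -0.73, Dlgap3 by -0.72, Grin2c by -0.47 and Gria2 by 0.46. All measured genes had an SD of 0.29. Whether the pools, the hybridisation or the scan set these differences cannot be told apart. For such genes the difference between the mutant pools depends on the channels used. When the Cy3 channels were set against each other directly, Shank3 differed by -1.23, Grik5 by -1.08, Grin1 by -1.003, Grid1 by -1.35 and Gria2 by 0.06, where the ratios over wild type gave -0.46, -0.30, 0.23, -0.23 and -0.40. Grin1 and Gria2 thus changed direction, while Shank3, Grik5 and Grid1 kept it. Gria1, Grin2b and Dlgap2 also kept theirs, with -0.66, 0.44 and 0.43. For Gria1, Grin2b and Dlgap2 the wild-type channels differed by 0.21, -0.01 and 0.04. Both routes use the same Cy3 signals, so they come close wherever the wild-type channels differ little.

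**Figure D4:**
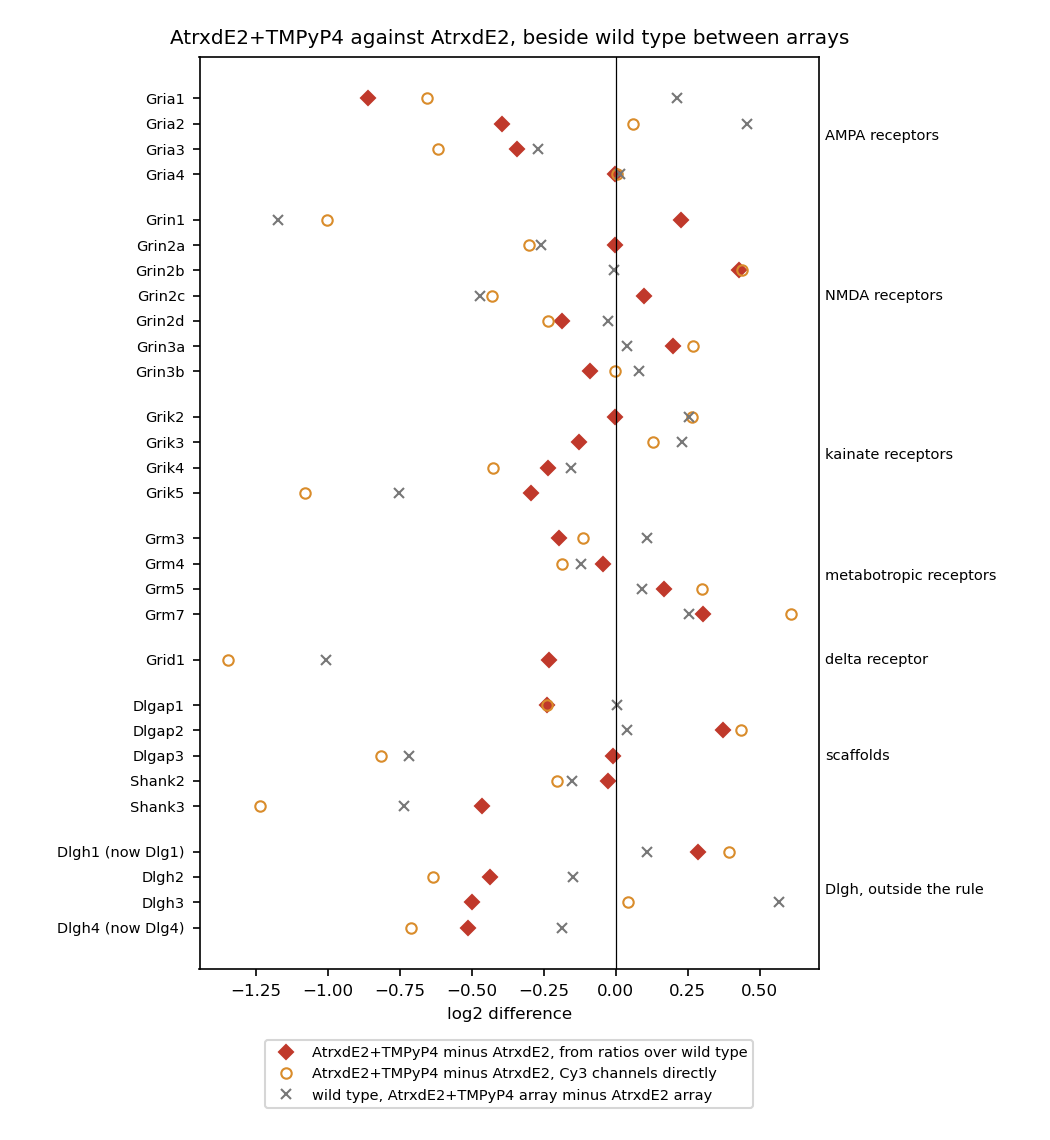
Log2 difference (horizontal axis) for each member and the Dlgh genes, as AtrxdE2+TMPyP4 minus AtrxdE2 from the ratios over wild type (red diamonds), the same from the Cy3 channels directly (open orange circles) and wild type on the AtrxdE2+TMPyP4 array minus wild type on the AtrxdE2 array (grey crosses). Gria1 is low by both routes (-0.86 and -0.66), which share the same Cy3 signals. The crosses of Grin1 (-1.17) and Grid1 (-1.01) lie farther from 0 than their diamonds.

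Subunits of the same class were set side by side as differences of log2 ratios. Grin2b stood 0.12 above Grin2a in AtrxdE2+TMPyP4 and -0.31 from it in AtrxdE2, relative to wild type. Grik5 stood -0.31 from Grik2 in AtrxdE2+TMPyP4 and -0.02 in AtrxdE2, but -0.054 and 0.18 with median centring and -0.24 and 0.13 in the authors' value table. Gria3 stood 0.03 from Gria2 in AtrxdE2+TMPyP4 and -0.02 in AtrxdE2, but 0.47 and -0.52 with the local background. These pairs, too, were chosen after their values were seen.

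Proteins that escort, anchor or act with the receptors were described from lists. For the counts in this and the following lists, 5.83% of all genes were higher by at least 0.32 and 3.14% lower in AtrxdE2+TMPyP4. In AtrxdE2 these shares were 4.5% and 5.04%. Of 20 AMPA receptor partners, 16 were measured, with a median of -0.06 in AtrxdE2+TMPyP4 and -0.06 in AtrxdE2, both over wild type. In AtrxdE2+TMPyP4 0 were higher by at least 0.32 and 3 lower, and in AtrxdE2 0 were higher and 1 lower. The TARP gene Cacng4 had -0.47 and Nsf, the ATPase that binds GluA2, had -0.43 in AtrxdE2+TMPyP4, while the TARP gene Cacng2 and Olfm1 had 0.21 each. In AtrxdE2, 2700045P11Rik (now Shisa9) had -0.41, Nsf -0.25, Cacng2 0.23 and Cpt1c 0.20. The median of these partners in AtrxdE2 was -0.06 where that of the 4 subunit genes was 0.39. Between the mutant pools, Cacng4 differed by -0.32 and Cpt1c by -0.29, and 2700045P11Rik by 0.32 and Grasp by 0.18.

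The 18 listed partners of NMDA and kainate receptors were all measured, with a median of 0.02 in AtrxdE2+TMPyP4 and 0.02 in AtrxdE2. Mpp3, a scaffold of the same superfamily as the Dlg proteins, had 0.73 in AtrxdE2+TMPyP4 and 0.46 in AtrxdE2. Camk2b, a subunit of the calcium-dependent kinase that binds GluN2B, had -0.49, Actn2, an actin linker, -0.38 and the kinase gene Fyn 0.20 in AtrxdE2+TMPyP4. In AtrxdE2, Nlgn1, the adhesion protein neuroligin, had 0.35, the ephrin receptor gene Ephb2 -0.29 and Lin7b -0.26. Between the mutant pools, Camk2b differed by -0.64 and Actn2 by -0.30, and the serine racemase gene Srr by 0.35 and Lin7a by 0.28. Higher and lower by at least 0.32 were 1 and 2 of the 18 in AtrxdE2+TMPyP4, and 2 and 0 in AtrxdE2.

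Of 15 metabotropic receptor partners, 14 were measured, with a median of 0.02 in AtrxdE2+TMPyP4 and 0.07 in AtrxdE2. In AtrxdE2+TMPyP4 3 were higher by at least 0.32 and 0 lower, led by the phospholipase gene Plcb4 at 0.53 and the G protein regulator gene Rgs7 at 0.49, and Ncdn was at -0.16 and Homer2 at -0.15. In AtrxdE2 0 were higher and 1 lower, with Ncdn, which encodes neurochondrin, at -0.40, Homer1 at -0.19, Prkca at 0.29 and Dgkz at 0.22. Between the mutant pools, Homer1, which ties group I receptors to Shank proteins, differed by 0.55 and Plcb4 by 0.34, and Homer2 by -0.33 and Dgkz by -0.18.

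Of 33 other postsynaptic density proteins, 28 were measured and Kcnj10 was on the array but not measured. Their median was 0.02 in AtrxdE2+TMPyP4 and 0.03 in AtrxdE2. By the same limit 2 were higher and 3 lower in AtrxdE2+TMPyP4, and 2 were higher and 2 lower in AtrxdE2. Baiap2, which encodes a membrane-bending regulator of actin, had -0.72 and Arc, an activity-induced gene whose product promotes AMPA receptor endocytosis, -0.39 in AtrxdE2+TMPyP4, where 1200020A08Rik (now Cript) had 0.42 and Sipa1l1 0.41. In AtrxdE2, Abi2 had -0.55, Arc -0.44, Sipa1l1 0.77 and the neuroligin gene Nlgn3 0.35. Which genes end a list rests partly on the offset. In the authors' value table Kalrn was lowest in AtrxdE2, at -1.13, and Lrrtm4 highest in AtrxdE2+TMPyP4, at 1.06. Baiap2 stayed lowest in AtrxdE2+TMPyP4 there, at -1.55, and Sipa1l1 highest in AtrxdE2, at 0.77. Arc was below wild type and Sipa1l1 above it in both mutant pools. Between the mutant pools, Baiap2 differed by -0.67 and Dbn1 by -0.55, and Abi2 by 0.40 and Cnksr2 by 0.32.

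Of 16 genes of glutamate transport, vesicle loading and synthesis, 13 were measured, with a median of 0.03 in AtrxdE2+TMPyP4 and 0.05 in AtrxdE2. Slc1a2, the main astrocytic glutamate transporter gene, had 0.58 in AtrxdE2+TMPyP4 and 0.41 in AtrxdE2. In AtrxdE2+TMPyP4 the vesicular transporter gene Slc17a6 had 0.52, the glutamine synthetase gene Glul -0.93 and the astrocytic transporter gene Slc1a3 -0.24. In AtrxdE2, Slc1a6 had 0.25, Slc38a1 -0.16 and Glul -0.15. Between the mutant pools, Glul differed by -0.79 and Slc1a4 by -0.35, and Slc38a2 by 0.48 and Slc17a6 by 0.47. By the limit of 0.32, 3 of the 13 were higher and 1 lower in AtrxdE2+TMPyP4, and 1 was higher and 0 lower in AtrxdE2.

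Markers of cell types and neighbouring regions also differed between pools. For the counts below, 5.83% of all genes were higher by at least 0.32 and 3.14% lower in AtrxdE2+TMPyP4, and 4.5% and 5.04% in AtrxdE2. The 14 measured neuron markers had a median of -0.02 in AtrxdE2+TMPyP4 and -0.06 in AtrxdE2, with a summed level of 81000 in AtrxdE2+TMPyP4 against 86026 in wild type, and of 81217 in AtrxdE2 against 87874 in wild type. Such sums add the brightness of unlike probes and follow the brightest: without Uchl1 the neuron sum was 65682 in AtrxdE2+TMPyP4 against 63179 in wild type, and 65435 in AtrxdE2 against 62542 in wild type. Hippocampal fields were represented by 5 of 7 CA1, 7 of 8 CA3 and 7 of 8 dentate granule markers, with medians of -0.28, 0.13 and 0.03 in AtrxdE2+TMPyP4 and of -0.04, 0.06 and -0.03 in AtrxdE2. Of 10 measured choroid plexus markers, 9 were higher by at least 0.32 in AtrxdE2+TMPyP4 and 1 in AtrxdE2, and their summed level was 48330 in AtrxdE2+TMPyP4 against 4176 in wild type, and 4483 in AtrxdE2 against 4036 in wild type. Ttr alone made up 80.4% of the sum in AtrxdE2+TMPyP4, and without it the sum was 9459 in AtrxdE2+TMPyP4 against 3771 in wild type, and 4128 in AtrxdE2 against 3918 in wild type. Of 14 meninges markers 10 were higher in AtrxdE2+TMPyP4 (summed 4217 against 2599 in wild type) and 7 in AtrxdE2 (3680 against 2740). Of 9 measured striatum markers 7 were lower in AtrxdE2+TMPyP4 (summed 3732 against 5374 in wild type) and 3 in AtrxdE2 (5446 against 8452), and of 12 oligodendrocyte markers 6 were lower in AtrxdE2+TMPyP4 (18492 against 26860) and 8 in AtrxdE2 (17320 against 26060). Astrocyte markers had medians of 0.11 in AtrxdE2+TMPyP4 and 0.00 in AtrxdE2, and cerebellum markers of -0.03 and -0.01. The part that tissue composition had in the values of Gria1, Grik5 or any other member was not tested, and in pooled tissue fewer cells of a type and less RNA per cell cannot be told apart.

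**Figure D5:**
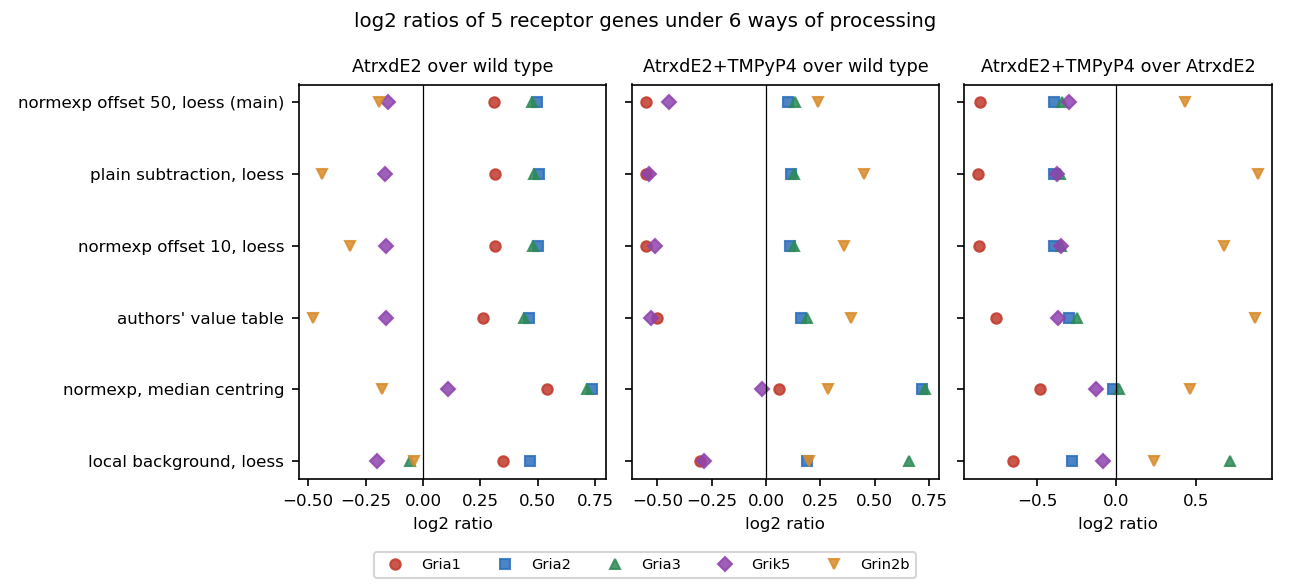
Log2 ratio (horizontal axis) of Gria1, Gria2, Gria3, Grik5 and Grin2b in the 3 comparisons under 6 ways of processing (rows), 1 point per gene. Gria1 lies left of Gria2 in every row of all panels, and with median centring Gria1 in AtrxdE2+TMPyP4 over wild type moves to 0.06.

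The plot of 5 genes under 6 ways of processing shows which values rest on the correction for dye and background. Gria1 and Gria2 were above wild type in AtrxdE2 in all 6, with 0.26 to 0.54 for Gria1 and 0.46 to 0.74 for Gria2. In AtrxdE2+TMPyP4 Gria1 was below wild type in 5 of 6, the exception being median centring. Grin2b was above wild type in AtrxdE2+TMPyP4 and below it in AtrxdE2 in all 6.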

How the data were processed

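Hippocampal RNA of AtrxdE2+TMPyP4, AtrxdE2 and wild-type pools was measured on 2 two-colour arrays (wild type Cy5, mutant Cy3). Per the file headers, the deposited scanner tables give the intensity of each spot and of its surround per channel, combined over scans at several gains. Per the labels, the authors' value table holds log2 ratios, normalized, with the mutant pool on top. It matched, within 0.01 for 99.99% of values of each array, the blank-subtracted log2 ratio less 1.171 (AtrxdE2+TMPyP4 array) or 0.652 (AtrxdE2 array), which settles its direction and scale, and each column has a median of 0.0. The scanner software is not given in the sources used here.

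Background was corrected by normexp (limma 3.58.1, R 4.3.3, offset 50) with the trimmed mean of 2736 blank spots as background, followed by loess within each array. The steps were also run on simulated data that held no dye trend, with only bright spots checked. That run therefore cannot decide between loess and median centring and says little about dim genes. Levels were scaled by the Aquantile method. A probe was measured if above the blank mean by 2 SD in both channels of both arrays. This left 18664 of 23473 probes and 13630 named genes, with probes of a gene averaged. The annotation gives 1 symbol for 16631 probes, several for 0 and none for 6842. All 28 member symbols are current in RefSeq. With no replicates, no test was run. Each gene is set against the 500 genes nearest in signal, and genes past 0.32 log2 units and past 2-fold are counted. Every member is named, with signals for the 3 highest and 3 lowest per comparison and the first of each class, and the 2 highest and 2 lowest genes of each other list. Members, lists and thresholds were chosen with earlier results of these data known. Alternatives tried were plain subtraction, local background, an offset of 10, median centring, filters on dim probes, the brightest probe, the authors' table and the Cy3 channels compared directly. Sequence windows came from RefSeq (GRCm38.p6).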

Additional observations from a re-analysis of the deposited data

Results flagged for a closer look

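For 4 members, AtrxdE2+TMPyP4 and AtrxdE2 lay on opposite sides of wild type and differed by at least 0.32 log2 units. With 1 array per pool these differences were not tested, and none of the 4 kept both features under every processing. Gria1 differed by -0.86, with -0.55 in AtrxdE2+TMPyP4 and 0.31 in AtrxdE2. Shank3 differed by -0.46, with -0.16 in AtrxdE2+TMPyP4 and 0.31 in AtrxdE2. Grin2b differed by 0.43, with 0.24 in AtrxdE2+TMPyP4 and -0.19 in AtrxdE2. Dlgap2 differed by 0.37, with 0.16 in AtrxdE2+TMPyP4 and -0.21 in AtrxdE2. With median centring in place of loess, Gria1 was above wild type in both pools, with 0.06 in AtrxdE2+TMPyP4 and 0.54 in AtrxdE2, as was Shank3, with 0.26 and 0.57 and a difference of -0.30. With the local background the difference was 0.24 for Grin2b and 0.17 for Dlgap2, short of 0.32.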

How the results depend on the processing

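With 1 array of 1 pool a group, the number of arrays limits every value, there was no replicate to leave out, and no value has a replicate error. No paired analysis was possible because each group has 1 array. Dim genes are limited by signal over background: an offset or the lack of one moves Grm5, Grin2b, Grm7 and Dlgap2 more than bright AMPA genes. Medians over members or classes and counts at 0.32 log2 units were recomputed in 224 cases, of which 159 stayed within the limits used and 65 moved. For single genes, 226 of 260 values stayed within those limits, 29 moved and 5 were counted as reversed. More values than these 5 changed sign. In AtrxdE2+TMPyP4 over wild type, Grin1 went from 0.07 to -0.11 with the local background, and Shank3 from -0.16 to 0.26 with median centring. Medians crossed 0 too, such as that over members in AtrxdE2, from 0.05 to -0.08 with the local background. Counting without a filter on dim probes, or with the brightest probe per gene, moved 0 of the medians, counts and single values. The cause of each move was not tested unless stated.

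With plain subtraction, AtrxdE2+TMPyP4 over wild type had 1 member higher and 4 lower and medians of -0.17 over members and -0.22 over metabotropic receptors. AtrxdE2 over wild type had 5 higher and 5 lower and a metabotropic median of -0.30. The difference between mutant pools had 6 higher and 9 lower, with medians of -0.22 and 0.15. Of all genes 15.1% were higher and 11.9% lower in AtrxdE2+TMPyP4, 13.4% and 15.8% in AtrxdE2, and 22.6% and 18.3% in the difference. The authors' value table gave 1 higher and 6 lower and a metabotropic median of -0.21 for AtrxdE2+TMPyP4, 5 higher and 5 lower and -0.33 for AtrxdE2, and for the difference 6 higher, 8 lower, a member median of -0.15 and a metabotropic median of 0.17. With an offset of 10, 1 member was higher in AtrxdE2+TMPyP4, 3 were lower in AtrxdE2 (metabotropic median -0.19), and 5 were higher and 8 lower in the difference, where 9.32%, 9.84%, 16.4% and 12.3% of all genes were.

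With the local background, AtrxdE2+TMPyP4 over wild type had 1 higher and 0 lower and a metabotropic median of 0.0008. AtrxdE2 over wild type had 2 lower and medians of -0.084 over members, 0.16 over AMPA receptors, -0.18 over metabotropic receptors and -0.13 over scaffolds, and Gria3 was at -0.058. The difference had 2 lower and medians of 0.073 over members, -0.075 over AMPA, 0.058 over kainate and 0.18 over metabotropic receptors and 0.17 over scaffolds, and Gria3 was at 0.72.

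Median centring in place of loess raised the median of all genes to 0.18 in AtrxdE2+TMPyP4, 0.07 in AtrxdE2 and 0.06 in the difference. AtrxdE2+TMPyP4 over wild type then had 4 higher and 0 lower and medians of 0.0875 over members, 0.48 over AMPA and 0.0203 over metabotropic receptors and 0.17 over scaffolds, and Gria1 was at 0.062. AtrxdE2 over wild type had 5 higher and an AMPA median of 0.63. The difference had 4 higher and 2 lower, an AMPA median of -0.0013 and Gria3 at 0.017.

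Among probes above the median signal, the kainate median, of Grik5 alone, was -0.45 in AtrxdE2+TMPyP4. AtrxdE2 had medians of 0.21 over members and 0.0565 over metabotropic receptors. The difference had 0 higher (14.0% of all genes) and medians of -0.32 over members, -0.20 over metabotropic receptors and -0.33 over scaffolds. With the Cy3 channels compared directly, the difference had 9 lower and medians of -0.20 over members, -0.24 over NMDA receptors and -0.24 over scaffolds, and Gria2 was at 0.061. Adding Dlgh1 to Dlgh4, an alternative chosen after seeing the data, gave 5 higher in AtrxdE2 (4.5% of all genes). In the difference it gave 7 lower (6.54%) and a scaffold median of -0.24.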

Other observations

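In AtrxdE2+TMPyP4 over wild type, the ends of the marker lists were as follows, as log2 ratios. Among neuron markers, the neurofilament gene Nef3 (now Nefm) had 0.65 and the vesicle fusion gene Snap25 0.59, and Uchl1 had -0.58 and Eno2 -0.29. Snap25 was at -0.67 in AtrxdE2 over wild type, a difference of 1.254 between the mutant pools. CA1 markers ran from Nov (now Ccn3) at -0.33 and Mpped1 at -0.28 to Lefty1 at 0.03 and Gpr161 at 0.24. CA3 markers ran from Grp at -0.78 and Nptx1 at -0.30 to Coch at 0.47 and Pvrl3 (now Nectin3) at 0.48. Dentate granule markers ran from Tdo2 at -0.03 and Lct at -0.01 to Calb1 at 0.03 and Trpc6 at 0.65. Trpc6 was at 0.85 in AtrxdE2, so this channel gene was above wild type in both mutant pools.

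Of the glial lists, astrocyte markers had Glul at -0.93 and Slc1a3 at -0.24, and Slc1a2 at 0.58 and Gja1 at 0.30, again in AtrxdE2+TMPyP4 over wild type. Oligodendrocyte markers had Cnp1 (now Cnp) at -0.80 and Mobp at -0.78, and Mag at 0.03 and Ugt8a at -0.10. Choroid plexus markers had Ace at -0.00 and Otx2 at 0.62, and Ttr at 6.58 and Folr1 at 1.93, while Aqp1, Cldn2 and F5 were not above background in every channel. Meninges markers had Aldh1a2 at -0.15 and Col1a1 at 0.10, and Crabp2 at 1.255 and Ogn at 1.23. Striatum markers had Ppp1r1b at -0.89 and Rgs9 at -0.76, and Tac1 at 0.14 and Pdyn at 0.13. Cerebellum markers had Cbln1 at -0.66 and Zic1 at -0.57, and Neurod1 at 0.48 and En2 at 0.15.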
